A study of Mus musculus with 2 samples.

Results

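Myelin is built from a small set of proteins and lipids, and 9 genes that encode its components were followed in chromatin accessibility maps of mouse frontal cortex. They were Mbp, Mog, Mag, Mobp, Cnp, Cldn11, Ugt8a, Fa2h and Opalin, 9 of the 21938 protein-coding genes of the GENCODE M21 annotation. The genes were taken from a list of names. For each gene, every annotated transcription start site (TSS) and a window of the gene body plus 10 kb to each side was searched for peaks and footprints. Coordinates are on the mouse build mm10.

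The data are DNase-seq, in which the enzyme DNase I cuts DNA where it is not covered by nucleosomes and the cut ends are sequenced. There is 1 group: frontal cortex tissue of female B6CASTF1/J mice aged 36 days, an F1 hybrid that carries a B6 and a CAST copy of each chromosome, with 2 biological replicates and no other condition. Both replicates carry the same donor label under separate tissue records, so differences between them may be technical, and no test between conditions exists. The tissue is a mixture of neurons, glia and vessel cells, so a weak peak in few cells and a weak opening in many cells cannot be told apart.

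Oligodendrocytes wrap axons of the central nervous system in stacked membrane. Myelin basic protein holds the cytoplasmic faces of that membrane together, while its galactolipids are made by dedicated enzymes. Transcription factors such as SOX10, OLIG2 and MYRF are known to drive these genes when an oligodendrocyte matures, and another, far upstream promoter of Mbp gives the Golli proteins, which are also made in neurons and immune cells.

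Each replicate has 2 peak lists, here called the main (shorter) and the longer list. The main lists hold 66512 peaks in replicate 2 and 29700 in replicate 1. The longer lists hold 117579 and 56015 peaks, and the footprint lists 250543 and 112826 footprints, in the same order of replicates. A footprint is a short stretch protected from cutting inside accessible DNA. The peak signal is the authors' depth-normalized density, and all of its distinct values below 5 were whole multiples of 1 step within 0.02 steps. Where a step stands for a single tag scaled to a library of 1 M (mega) tags, replicate 2 holds 103 M tags and replicate 1 holds 84.9 M. The 95% intervals given below are exact Poisson intervals on that reading and cover counting error only.

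The sequences of the accessible sites on which the results turn are shown first, read from the mm10 reference on the strand of the gene. Capitals mark bases inside footprints of replicate 2. The first 4 are the parts of the promoter peaks upstream of the start of Fa2h (chr8:111393825-111394040), Cnp (chr11:100574821-100574903), Cldn11 (chr3:31149821-31149919) and Ugt8a (chr3:125938721-125938940). The next 4 are peaks away from promoters. They are the strongest one near any of the 9 genes, upstream of Mog (the central 300 bases, chr17:37028691-37028990), and the intronic peak of Opalin (chr19:41071661-41071820). The others are the intronic peak of Mag (chr7:30904169-30904334), which was all that was listed for that gene, and the strongest peak in the Mobp window (chr9:120140741-120140940).
Fa2h promoter: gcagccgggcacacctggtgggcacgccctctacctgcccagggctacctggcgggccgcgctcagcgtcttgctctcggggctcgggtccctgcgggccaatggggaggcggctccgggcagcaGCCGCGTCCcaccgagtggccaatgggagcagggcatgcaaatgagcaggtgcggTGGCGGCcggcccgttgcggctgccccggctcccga
Cnp promoter: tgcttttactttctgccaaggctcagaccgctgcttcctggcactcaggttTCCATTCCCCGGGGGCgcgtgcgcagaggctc
Cldn11 promoter: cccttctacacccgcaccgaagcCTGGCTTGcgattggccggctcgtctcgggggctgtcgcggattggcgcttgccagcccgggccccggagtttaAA
Ugt8a promoter: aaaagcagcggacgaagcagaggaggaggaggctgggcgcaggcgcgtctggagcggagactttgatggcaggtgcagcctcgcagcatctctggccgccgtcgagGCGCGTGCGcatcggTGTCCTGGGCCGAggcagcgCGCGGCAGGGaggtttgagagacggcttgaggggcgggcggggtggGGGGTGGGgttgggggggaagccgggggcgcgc
Mog upstream: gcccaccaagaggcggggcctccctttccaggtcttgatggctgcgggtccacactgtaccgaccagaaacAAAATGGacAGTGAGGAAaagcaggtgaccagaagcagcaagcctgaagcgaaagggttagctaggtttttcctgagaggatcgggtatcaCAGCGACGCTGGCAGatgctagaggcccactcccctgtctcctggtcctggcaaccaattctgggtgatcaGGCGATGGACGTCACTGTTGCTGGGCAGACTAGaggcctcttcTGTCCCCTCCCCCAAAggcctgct
Opalin intron: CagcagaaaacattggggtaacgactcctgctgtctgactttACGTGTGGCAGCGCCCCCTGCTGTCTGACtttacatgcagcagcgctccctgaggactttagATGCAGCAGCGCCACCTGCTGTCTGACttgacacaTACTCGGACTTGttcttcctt
Mag intron: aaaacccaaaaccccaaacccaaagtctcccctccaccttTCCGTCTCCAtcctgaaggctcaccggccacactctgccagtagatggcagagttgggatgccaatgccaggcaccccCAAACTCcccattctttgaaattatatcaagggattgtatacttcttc
Mobp upstream: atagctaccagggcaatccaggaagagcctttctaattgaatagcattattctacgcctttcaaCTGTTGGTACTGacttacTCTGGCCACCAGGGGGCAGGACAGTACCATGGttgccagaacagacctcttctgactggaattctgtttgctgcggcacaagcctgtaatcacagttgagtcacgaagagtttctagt

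The promoters of Mog, Mag, Opalin and Cnp share a short motif, CTGGCAC or CTGGTAC, of the kind bound by the myelin regulatory factor MYRF. The stretches are shown because the first 3 of these promoters had no peak and Cnp had one. They come from the RefSeq promoter set on GRCm38.p6, and capitals mark the motif, or its reverse complement for Mog and Opalin. They lie at chr11:100574848-100574874 for Cnp, chr7:30914915-30914941 for Mag, chr17:37023465-37023491 for Mog and chr19:41077064-41077087 for Opalin.
Cnp: ccgctgcttcCTGGCACtcaggtttcc
Mag: caggcggcccCTGGCACccagggggca
Mog: gaaatgcccaGTACCAGgcagccactg
Opalin: aagacctgcaGTGCCAGtgagaga

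Peaks were found at the promoters of 5 of the 9 myelin genes in replicate 2, close to the share of all protein-coding genes, and of 1 of the 9 in replicate 1, below that share. A promoter was called when a peak lay within 500 bp of any TSS of the gene. In the main lists, 5 of the 9 myelin genes were called in replicate 2 (Mbp, Cnp, Cldn11, Ugt8a and Fa2h), beside 60.0% of all protein-coding genes. The call of Mbp rested on its far upstream Golli promoter. The promoter of the classic myelin basic proteins had no main-list peak in either replicate. In replicate 1 only Fa2h was called, beside 51.0% of all protein-coding genes. The 1 gene called in both replicates stood beside 50.8% of all genes. The number of myelin genes called was 3 ± 2.83 over the replicates (SD, n = 2), and the SD was nearly as large as the mean.

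The longer lists added few promoters. In replicate 2 they brought in Mobp, for 6 of the 9 genes beside 64.4% of all genes, and in replicate 1 they brought in Cnp, for 2 of the 9 beside 58.2%. In both longer lists 2 of the 9 were called, Cnp and Fa2h, beside 57.9% of all genes. Footprints within 500 bp of a TSS were present in 5 of the 9 genes in replicate 2, beside 62.3% of all genes, and in 2 of the 9 in replicate 1, beside 55.5%.

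The deposited table of cleavage rates gives a false discovery rate (FDR) per interval, and it allows promoters to be read in bases instead of peaks. The table holds only values below 0.05, so this reading has a threshold too. It was also not independent of the peak lists. Every peak listed near the myelin genes held bases with an FDR below 0.05, and main-list peaks there lay mostly on bases below 0.001. The myelin genes had a median of 265 bases at an FDR below 0.05 near a TSS in replicate 2, against a median of 638 over all protein-coding genes. In replicate 1 the medians were 0 bases for the myelin genes and 341.5 for all genes. The value of a gene is that of its TSS with the most such bases, and 1001 is every base searched at a TSS. Mog, Mag and Opalin had no such base in either replicate, whereas Cnp and Ugt8a had 1001 each in replicate 2. In replicate 1 Ugt8a was left with 3 such bases and Cnp with 487. These Cnp values were at noncoding starts, and its coding start had 777 in replicate 2 and 469 in replicate 1.

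**Figure D1:**
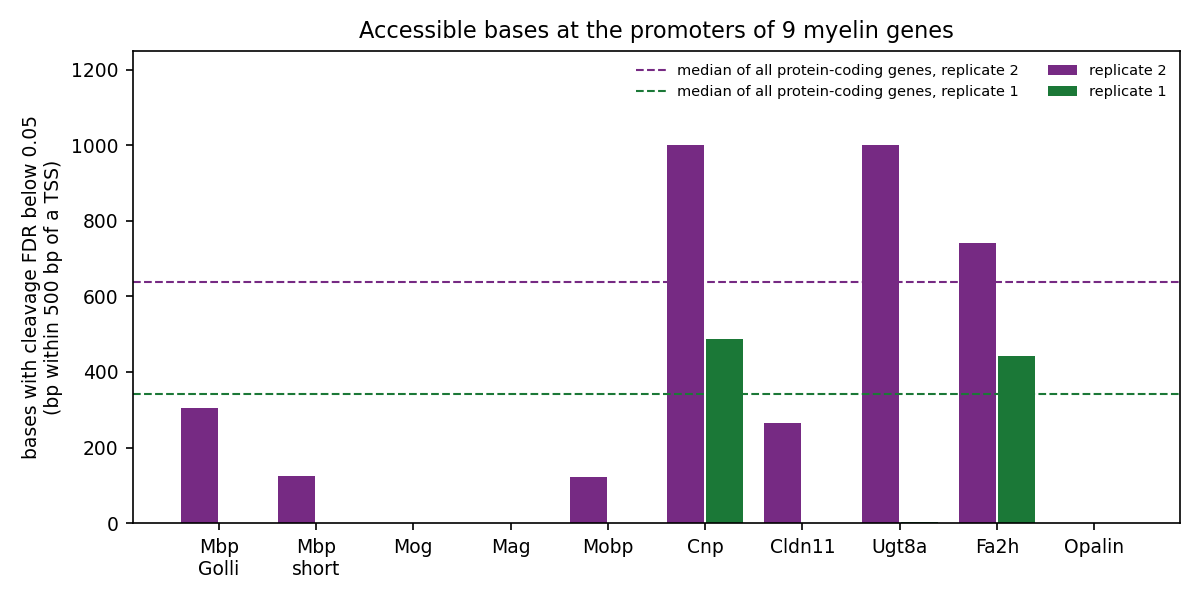
Bases with a cleavage FDR below 0.05 within 500 bp of a TSS, for each myelin gene and separately for the Golli and short promoters of Mbp. The TSS with the most such bases is taken. Bars are the 2 replicates and dashed lines the medians of all protein-coding genes; Mog, Mag and Opalin have 0 bases in both, and in replicate 1 only Cnp (487) and Fa2h (441) exceed 3.

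Most regions near these genes lay away from promoters, as did most peaks in the longer lists at large. The 4 lists merged into 56 regions in the 9 windows, of which 13 were at promoters, 5 in exons, 27 in introns and 11 between genes. Of the promoter regions, 11 were at a myelin gene and the other 2 at the starts of Zfp57 and Gm38642. Among main-list peaks in the windows of the myelin genes, 23.5% in replicate 2 and 12.5% in replicate 1 were at promoters (8 of 34 peaks and 1 of 8). In the windows of all protein-coding genes the shares were 40.5% in replicate 2 and 61.1% in replicate 1. The gap was smaller in the longer lists, where 23.2% of the myelin peaks in replicate 2 and 18.2% in replicate 1 were at promoters, against 29.5% in replicate 2 and 46.5% in replicate 1 for the windows of all protein-coding genes. Over all longer-list peaks, wherever they lay, the share was 22.0% in replicate 2, close to that of the myelin peaks. Mog and Opalin had a peak shared by both main lists while no list held a peak at their promoter, a pattern found in 9.24% of all protein-coding genes.

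Counts of peaks per window did not set the myelin genes apart. The 9 windows held a median of 3 main-list peaks in replicate 2 and 1 in replicate 1, against medians of 2 and 1 over all protein-coding genes. At least 1 main-list peak was found in 8 of the 9 windows in replicate 2, beside 78.1% of all genes, and in 5 of the 9 in replicate 1, beside 67.6%. A main-list peak shared by both replicates was found for the same number, 5 (Mbp, Mog, Mobp, Fa2h and Opalin), beside 67.2%. In the longer lists 8 of the 9 genes had a shared peak, all but Ugt8a, beside 75.2%. Median footprints per window were 10 in replicate 2 and 3 in replicate 1 for the myelin genes, and 10 and 5 for all genes. The median gene body was 16.8 kb for the myelin genes and 17.4 kb for all genes, so the windows were of like size.

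**Figure D2:**
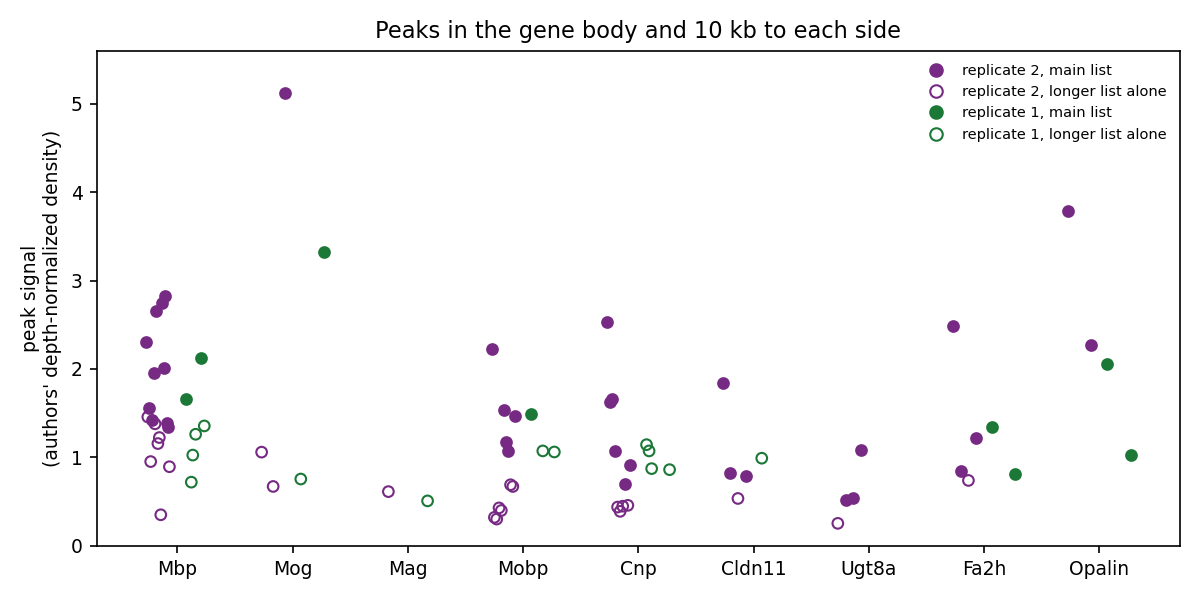
Signal of every peak in the windows of the 9 myelin genes, by replicate; filled points are in the main list and open points in the longer list alone. The highest point in both replicates is the peak upstream of Mog, at 5.12 in replicate 2 and 3.32 in replicate 1.

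Mbp, on chromosome 18 at 82475146 to 82585637 on the plus strand, had most of its accessible sites outside its promoters. Its Golli starts, 4 transcripts from 82475146 to 82475370, had 1 main-list peak in replicate 2. Its signal was 1.56 (1.33 to 1.82) and its smallest FDR 0.000230. Within 500 bp of the Golli starts lay 3 footprints, 2 of them in that peak. The short starts lie 79324 bp downstream, from 82554470 to 82554580, and begin the 11 coding transcripts that give the classic myelin basic proteins. There replicate 2 had a peak in the longer list alone, with a signal of 1.22 (1.02 to 1.46), 2 footprints and a smallest FDR of 0.0144. The intervals of the 2 promoters overlapped, and the difference between them was not tested; only the Golli promoter was in the main list. In replicate 1 no base at either promoter had an FDR below 0.05. A noncoding transcript of Mbp starting at 82563262 had neither peak nor footprint in either replicate.

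Elsewhere in the Mbp window, the 2 peaks shared by the main lists were between genes, 4965 bp upstream of the Golli starts, and in an intron, 13.3 kb downstream of the last short coding start. At the upstream peak the signal was 2.30 in replicate 2, against 1.66 in replicate 1, or 1.98 ± 0.45 (SD, n = 2). The intronic peak had 2.75 in replicate 2 and 2.12 in replicate 1, or 2.43 ± 0.44 (SD, n = 2). Both were above the Golli promoter in replicate 2. The highest signal of the window in that replicate was at another intronic site, 21.1 kb downstream of the short starts, with 2.83 in replicate 2 and 1.35 in replicate 1, where it was in the longer list only. Between the promoters, 3 intronic sites were in the main list of replicate 2 and the longer list alone of replicate 1. Their signals were 2.65, 1.95 and 1.42 in replicate 2 and 1.26, 1.02 and 0.719 in replicate 1, site by site in the same order, so each was higher in replicate 2.

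The stretches of the Mbp window differed in their density of accessible bases. The 30.6 kb from the short promoters to the 3′ end held 62.2 bases per kb at an FDR below 0.05 in replicate 2 and 18.4 in replicate 1. The 78.1 kb between the promoters, which only the Golli transcripts cross, held 19.4 bases per kb in replicate 2 and 3.39 in replicate 1. In the 9.50 kb upstream of the Golli promoter the values were 63.5 bases per kb in replicate 2 and 32.5 in replicate 1. The upstream stretch had the highest density of these 3 and the stretch between the promoters the lowest, in both replicates. The promoters, with 500 bp to each side, were denser than these 3 in replicate 2, with 249.8 bases per kb at the Golli starts and 113.4 at the short starts. In replicate 1 both had 0. The 10 kb past the 3′ end held 25.6 bases per kb in replicate 2 and 0 in replicate 1.

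**Figure D3:**
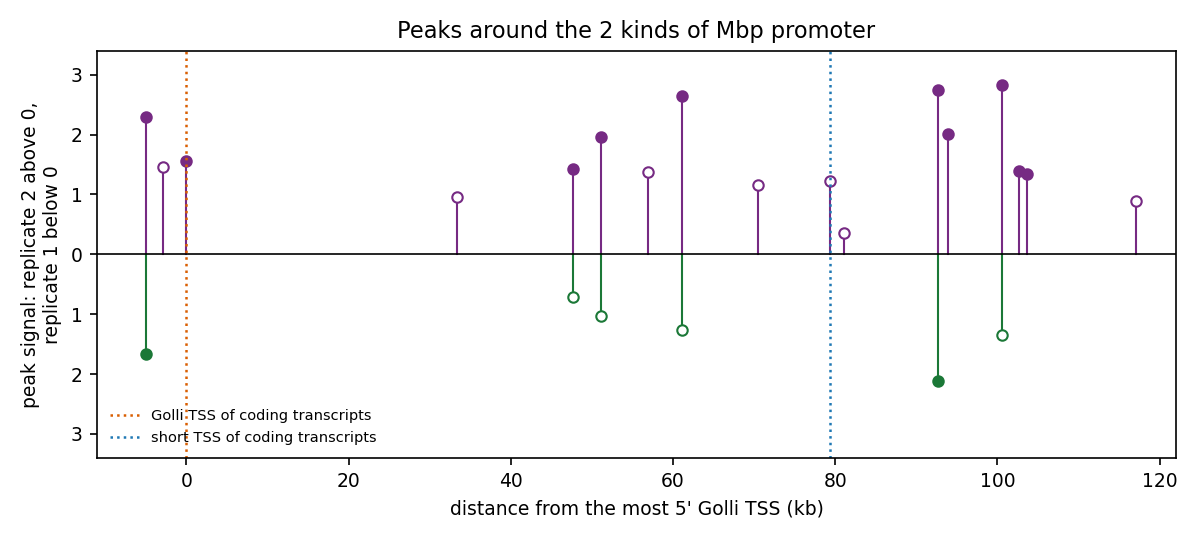
Peaks in the Mbp window by distance from the most 5′ Golli TSS in kb, with the signal of replicate 2 above 0 and of replicate 1 below 0; filled points are in the main list and open points in the longer list alone. The peak at the Golli starts (1.56) and that at the short starts (1.22) appear in replicate 2 only, and the main-list peaks of replicate 1 lie upstream (1.66) and in a downstream intron (2.12).

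Mog, Mag and Opalin encode membrane proteins of the oligodendrocyte, and none of them had a promoter peak in any list. Mog, myelin oligodendrocyte glycoprotein on the outermost lamella, instead had a peak 5443 bp upstream of its start. Its signal was 5.12 (4.69 to 5.57) in replicate 2 and 3.32 (2.95 to 3.73) in replicate 1, or 4.22 ± 1.27 (SD, n = 2), and it was in all 4 lists. It exceeded 97.1% of the longer-list peaks of replicate 2 and 95.9% of those of replicate 1, and was the highest of the 56 regions in both. It held 6 footprints in replicate 2 and 3 in replicate 1. The remaining regions of the Mog window were an intronic site in replicate 2 (0.670) and the promoter of the neighbouring zinc finger gene Zfp57, with 1.06 in replicate 2 and 0.754 in replicate 1.

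Mag, myelin-associated glycoprotein, which faces the axon, had the fewest peaks of the 9 genes in replicate 2. Neither main list held a peak in its window. The longer lists held 1 intronic peak, 10.6 kb downstream of the start, with 0.612 in replicate 2 and 0.507 in replicate 1. Those values were above only 39.6% of longer-list peaks in replicate 2 and 15.0% in replicate 1, and the window held 2 footprints in replicate 2 and 0 in replicate 1.

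Opalin, an oligodendrocytic transmembrane protein, had 2 peaks, and both were in all 4 lists. The peak in its own intron, 5.37 kb downstream of the start, had 3.79 (3.42 to 4.18) in replicate 2 and 2.05 (1.76 to 2.38) in replicate 1, or 2.92 ± 1.23 (SD, n = 2). The other, 9758 bp upstream and inside an intron of the neighbouring gene Tll2, had 2.27 in replicate 2 and 1.02 in replicate 1. The intronic peak was the highest of the 56 regions after that of Mog in replicate 2, and after those of Mog and the downstream intron of Mbp in replicate 1.

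Mobp, myelin-associated oligodendrocyte basic protein, a small cytoplasmic protein of compact myelin, had a weak promoter and stronger sites at a distance. The promoter peak was in the longer list of replicate 2 alone, with 0.398, above 17.1% of that list. The peak at -8.87 kb from the start had 2.22 in replicate 2 and 1.48 in replicate 1, or 1.85 ± 0.52 (SD, n = 2), and was in all 4 lists. Its nearest annotated start was that of Gm5922, at 4512 bp, and not that of Mobp. An intronic site 21.8 kb downstream of the Mobp start had 1.53 in replicate 2 and 1.07 in replicate 1, where it was in the longer list only. Adjoining exonic sites of 1.17 and 1.07 were in the main list of replicate 2 and in no list of replicate 1. Past the 3′ end, 35.0 kb from the start and inside the neighbouring gene Gm38642, a site had 1.47 in replicate 2 and 1.06 in replicate 1.

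Cldn11, a claudin that forms the tight junctions between layers of the sheath, had a promoter peak of 0.825 in replicate 2, with a smallest FDR of 9.23e-05 and 2 footprints, and none in replicate 1. Its highest site was 3769 bp upstream, with 1.84 in replicate 2 and 0.990 in replicate 1. Upstream and promoter sites were thus in the main list of replicate 2, and only the upstream site was seen in replicate 1, in the longer list. A site of 0.786 past the 3′ end, 16531 bp from the start, and an intronic one of 0.534 were seen in replicate 2 alone.

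Cnp, a 2′,3′-cyclic nucleotide phosphodiesterase of the uncompacted channels of myelin, had the most bases per kb of window at an FDR below 0.05 among the 9 genes, 110.1 in replicate 2 and 31.8 in replicate 1. Its promoter peak in replicate 2 was 620 bp wide, with a signal of 1.66 and 10 footprints. In replicate 1 the promoter peak was 85 bp wide and in the longer list only, with 0.872 and 2 footprints. Over the whole 620 bp, replicate 1 had 5 footprints. The smallest FDR near its starts was 7.92e-17 in replicate 2 and 0.00254 in replicate 1. Upstream, inside an intron of Ttc25, lay sites of 2.53 in replicate 2 and 1.14 in replicate 1 at 4219 bp, and of 1.63 in replicate 2 and 1.07 in replicate 1 at 3493 bp. All of the 4 Cnp regions seen in both replicates were in the main list of replicate 2 and the longer list alone of replicate 1.

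Both lipid enzymes had promoter peaks in replicate 2, and Fa2h had one in replicate 1 too. Fa2h, fatty acid 2-hydroxylase, which makes the hydroxylated fatty acids of myelin galactolipids, was the only gene with a promoter peak in all 4 lists. Its signal was 1.21 (1.01 to 1.45) in replicate 2 and 0.813 (0.632 to 1.03) in replicate 1, or 1.01 ± 0.28 (SD, n = 2). A further site, 50.4 kb downstream of the promoter and past the 3′ end of the gene, was higher, with 2.49 in replicate 2 and 1.34 in replicate 1. Intronic sites of 0.845 and 0.738 were listed in replicate 2 alone, and internal starts of 2 noncoding transcripts had no peak.

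Ugt8a, the galactosyltransferase that makes galactosylceramide, had the centres of all its peaks within 1.005 kb of its most 5′ coding start. Replicate 2 held 4 main-list peaks there, of 1.08, 0.544, 0.515 and 0.515, with a smallest FDR of 6.48e-10. All 4 footprints were in the peak of 1.08. Replicate 1 had no peak in either list and a smallest FDR of 0.0404. The peak at 1.005 kb, inside the gene, was in the longer list of replicate 2 alone, with 0.252. The window of 93.3 kb held no peak farther from the start in any list.

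**Figure D4:**
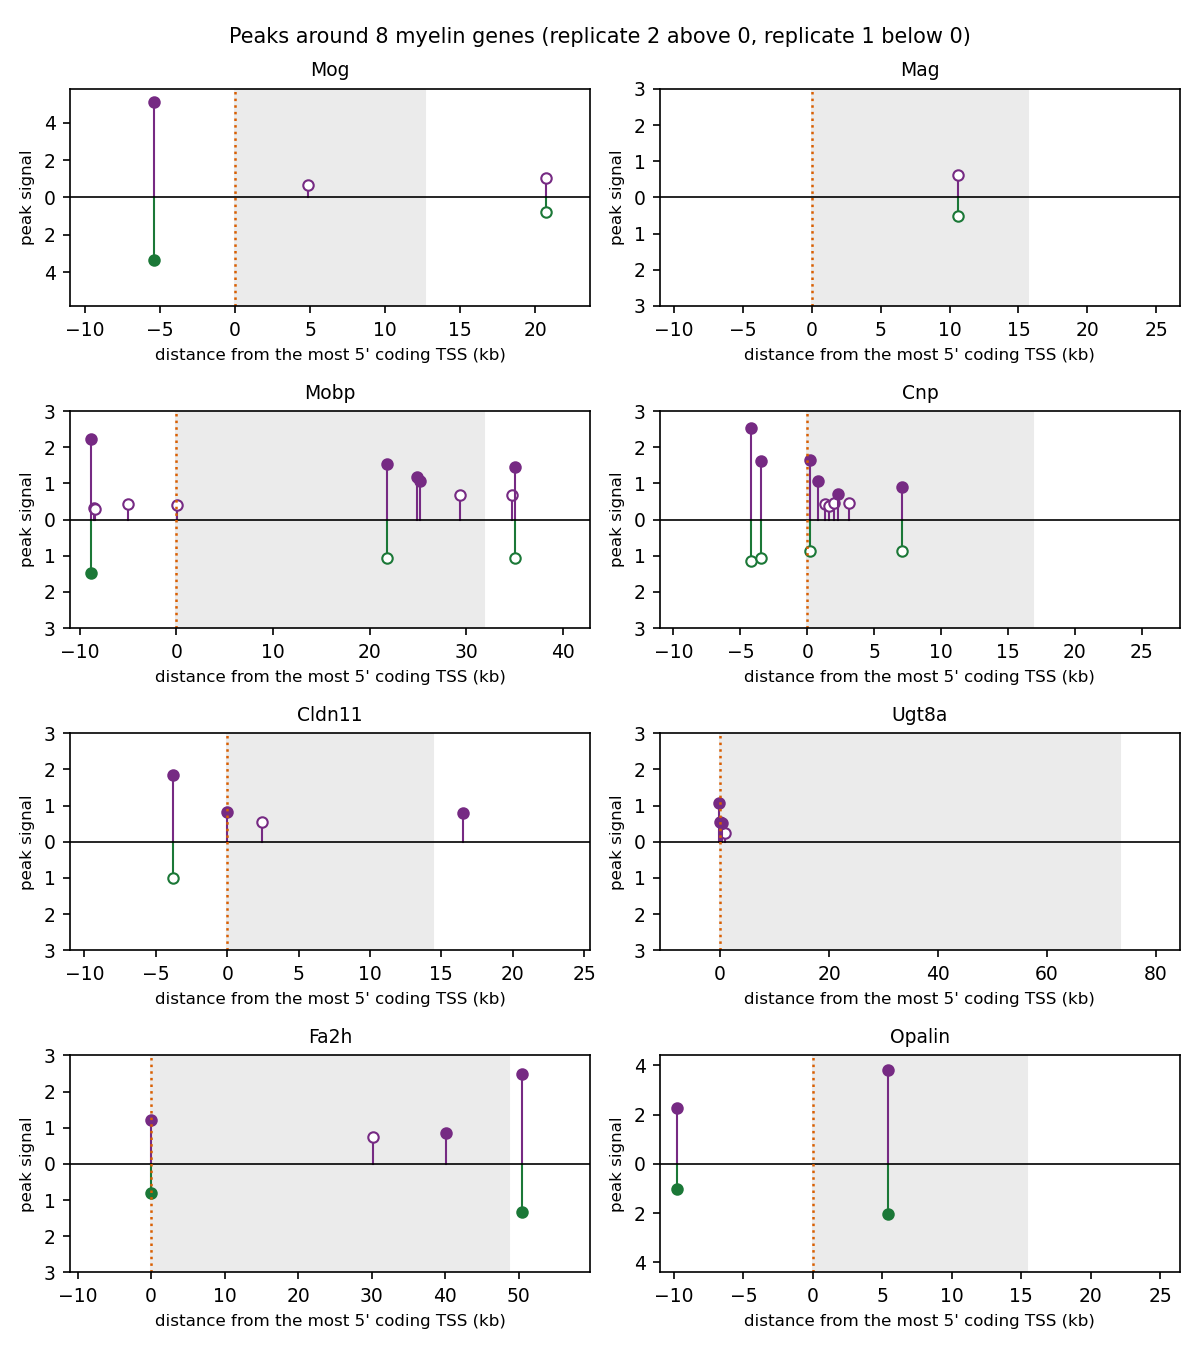
Peaks around the other 8 genes by distance from the most 5′ coding TSS in kb, the gene body shaded, with the signal of replicate 2 above 0 and of replicate 1 below 0; the signal scale differs between panels. Filled points are in the main list and open points in the longer list alone; Mog, Mag and Opalin have no point at 0 kb, and Ugt8a has points near 0 kb alone, in replicate 2.

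All regions seen in both replicates were higher in replicate 2. There were 21 regions in both longer lists, and all 21 had the higher signal in replicate 2, with a median ratio of replicate 2 to replicate 1 of 1.54 (range 1.06 to 2.22). Over all 49924 peaks shared by the longer lists the median ratio was 1.56, and 92.6% were higher in replicate 2. No region of the 9 windows was listed in replicate 1 without a partner in replicate 2. Of the 56 regions, 21 were in the longer list of replicate 2 alone and 14 more were in its main list with no partner in replicate 1.

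The 4 genes without a main-list promoter peak had the lowest content of CpG dinucleotides among the 9, with Mbp read at its Golli promoter. The ratio of observed to expected CpG, counted over 250 bp to each side of the most 5′ coding TSS, was 0.151 for Opalin, 0.177 for Mog, 0.231 for Mag and 0.353 for Mobp. It was 0.698 for the Golli promoter of Mbp, 0.720 for Cnp, 0.729 for Cldn11, 0.770 for Fa2h and 0.964 for Ugt8a, while the short promoter of Mbp had 0.464. The median was 0.698 over the 9 genes and 0.597 over all protein-coding genes. In that order the 5 genes with a main-list promoter peak in replicate 2 were the 5 with the highest ratios.

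Promoter peaks followed CpG content over all genes. Of 5987 protein-coding genes with a ratio below 0.25, 4.19% had a main-list peak at that TSS in replicate 2 and 1.65% in replicate 1. Of 7786 genes at 0.75 or above, 93.1% did in replicate 2 and 84.2% in replicate 1. Ugt8a was in this highest class and had no such peak in replicate 1. In the class from 0.5 to 0.75, 77.0% of 4485 genes had one in replicate 2 and 63.3% in replicate 1. Mbp, by its Golli promoter, Cnp and Cldn11 were in that class, and each had such a peak in replicate 2 and none in replicate 1. The ratio of the short promoter of Mbp, 0.464, lay in the class from 0.25 to 0.5, and that promoter had no main-list peak. The classes were chosen after the values of the myelin genes were known, and no test was made of them.

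**Figure D5:**
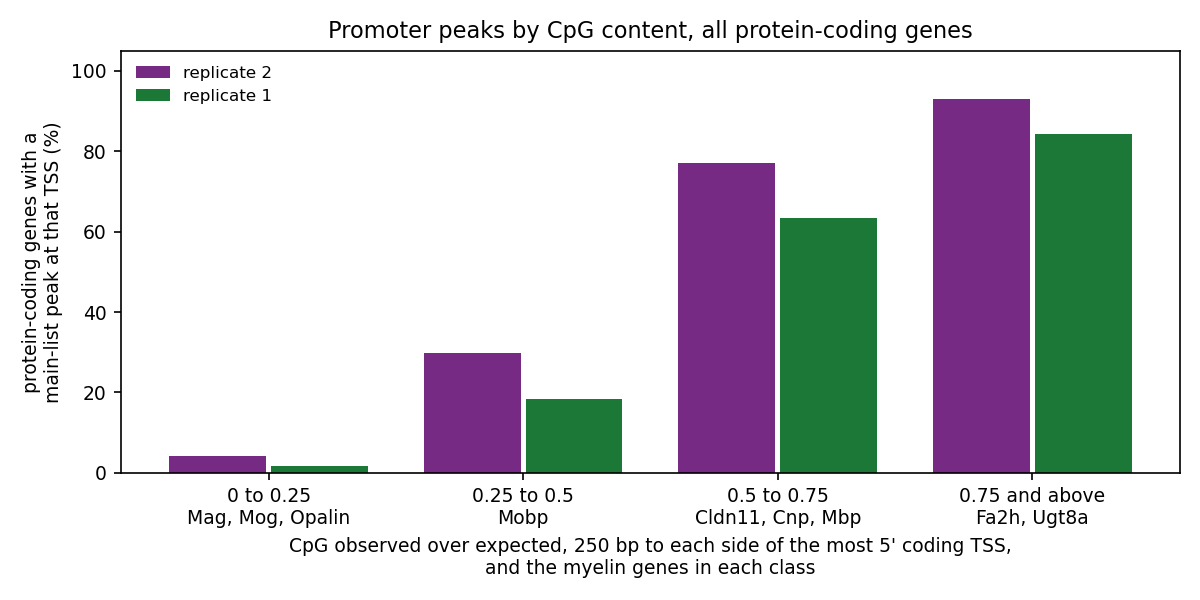
Share of all protein-coding genes with a main-list peak at the most 5′ coding TSS, by CpG ratio and replicate. The myelin genes of each class are named under the bars, with Mbp placed by its Golli promoter. The share is 4.19% in replicate 2 and 1.65% in replicate 1 below 0.25, the class of Mag, Mog and Opalin, and 93.1% and 84.2% at 0.75 and above, the class of Fa2h and Ugt8a.

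Motifs known from oligodendrocyte regulators and other factors were counted in the peaks, with no test of the differences. Exact matches on both strands were counted in 200 bp around the centre of the 34 main-list peaks of replicate 2 in the 9 windows, and in the same way in all 66512. SOX motifs (ACAAAG or ACAATG) were in 17.6% of the myelin peaks and 17.9% of all peaks. OLIG-type E-boxes (the letters CAGATG, or else the letters CAGCTG, or else the letters CATATG) were in 32.4% and 34.7%, and the MYRF motif in 5.88% and 7.55%, in that order. The NFI half-site TTGGCA was in 8.82% of the myelin peaks and 14.5% of all peaks. The TEAD motif GGAATG was in 0 of the 34 central windows and in 10.5% of those of all peaks. Outside the central 200 bp, the printed part of the Cnp promoter peak holds its reverse complement CATTCC at bases 54 to 59, inside a footprint.

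The MYRF motif was also counted in promoters. RefSeq promoters of 300 bases, 250 before and 50 after the start, were matched for 7 of the 9 genes, with 9 promoters in all. Of these, 5 held the motif (Cnp, Mag at 2 overlapping promoters, Mog and Opalin), beside 7.10% of all 32851 promoters. The Mag stretch is the same bases counted from 2 starts, at -68 and at -9. It begins at -81 in Cnp, -83 in Mog and 37 in Opalin. Of these 4 genes, Cnp alone had a peak over its promoter, and its match had 0 bases inside a footprint of replicate 2. The MYRF motif was not the only one counted in these promoters. SOX motifs were also in 5 of the 9, beside 28.6% of all promoters, and OLIG-type E-boxes were in 1 of the 9, beside 33.4%.

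A core of the motif of the insulator protein CTCF, AGGGGGC or AGGTGGC, was searched after the sequences above had been read. It was in 12 of the 34 myelin peaks, or 35.3%, and in 16.8% of all peaks. Of the 9 RefSeq promoters 5 held it (at Cldn11, Cnp, Mag and Ugt8a), beside 16.0% of all promoters. Among the 8 printed peak sequences it occurred in the Opalin intron, as GCCCCCT at bases 55 to 61 and GCCACCT at bases 115 to 121, and in the Mobp upstream peak as AGGGGGC at bases 93 to 99. These matches in the Opalin and Mobp peaks lay inside footprints of replicate 2. The printed Mag promoter stretch also holds the letters AGGGGGC, and no footprint was listed within 500 bp of a Mag start in either replicate. A match of letters is not a measured binding site, and since the motif was chosen from these sequences no test was made.

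Other genes of myelin and oligodendrocytes ranged from strong promoter peaks to none. Of 33 further genes, 10 had a promoter peak in the main lists of both replicates, beside 50.8% of all protein-coding genes. A further 12 had one in replicate 2 alone, beside 2016 of all 21938 genes, and 11 in neither, beside 8733. By the mean of the replicates, the highest promoter signals among those called in both were at Sirt2, a tubulin deacetylase of myelin, with 6.16 in replicate 2 and 4.16 in replicate 1, and at Tppp, a tubulin-binding protein, with 4.87 and 2.00 in the same order. Nfasc, which encodes an adhesion protein of the node of Ranvier and is also expressed by neurons, had 3.10 in replicate 2 and 2.11 in replicate 1. The lineage factor Olig1 had 2.40 and 1.12, the septin-binding protein gene Anln 2.12 and 1.39, and the ceramide synthase gene Cers2 1.70 and 1.12, in that order. Aspa, Klk6 and Nkx6-2 had no main-list peak in their windows. Counts of window peaks in the 4 lists were close to the median of the 9 genes in Car2, with a summed difference of 2 peaks, and in Cntn2, with 3.

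General lipid synthesis genes differed from the 9 in their promoters. Of 20 genes of cholesterol and lipid synthesis and its regulation, 19 were called at the promoter in both replicates, beside 50.8% of all protein-coding genes. The other was called in replicate 2 alone. Marker lists of brain regions and cell types were read beside the share of all protein-coding genes with a promoter peak. That share was 60.0% in replicate 2 and 51.0% in replicate 1. All 8 frontal cortex markers had a promoter peak in replicate 2, and 3 of them in replicate 1, below the share of all genes. Of 8 markers of posterior brain regions, 1 had one in replicate 2 and 0 in replicate 1. Astrocyte markers had 6 and 4 of 8, microglial markers 2 and 1, endothelial markers 1 and 0, and Schwann cell markers, which include Sox10 of the oligodendrocyte list, 6 and 4, each with replicate 2 before replicate 1. Astrocyte and Schwann cell lists gave the same counts, so these lists did not tell the cell types apart. The part of cell composition in the values of the myelin genes was not tested.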

How the data were processed

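DNase-seq peaks, footprints and cleavage rates of 2 frontal cortex libraries were analysed from files made by the authors on mm10, from each library apart, as the listing beside the files says. For the aligner, callers, thresholds and versions, details were not given in the sources used here. Peak signal was deposited by the authors as a depth-normalized density, and the other peak columns are constant. The footprint score deposited by the authors is constant, so positions alone were used. The deposited FDR (adjusted p-value) of the cleavage rate is given per interval and stays below 0.05.

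Reads of a B6 by CAST hybrid were placed on mm10, and the effect of CAST variants on the values was not tested. Overlaps of at least 1 bp were counted with Python 3.11.15, NumPy 2.4.6 and pandas 2.3.3, against GENCODE M21. Of each library's 2 peak lists, the shorter was used as the main list. On simulated data the counting of overlaps was tested and recovered the simulated peaks. With 1 group of 2 replicates no test was made; values are given per replicate beside those of all protein-coding genes. All 9 myelin genes are named. Of the other myelin genes, those named are the up to 6 with the highest mean promoter signal among those called in both replicates, those without a window peak, and the 3 most like the myelin genes' median counts, of which 1 is not reported here. The genes and lists were chosen with earlier results of these data known, and the CpG classes, the CTCF core and the printed sequences after the data were seen. Alternatives were the longer list, stronger peaks, equal list lengths, other windows and overlaps, coding transcripts alone, and each replicate alone.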

Additional observations from a re-analysis of the deposited data

How the results depend on the processing

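Of 49 values under other settings, 25 stayed within the spread of the replicates or 1.5 times the value and 24 moved. Promoter peaks in both replicates were found for 2 genes in the longer lists, 0 with the strongest 50% of peaks and 0 at equal list lengths, and for 1 to 5 with either replicate alone. In replicate 2 alone the count was 3 with the strongest 50% and 2 at equal lengths. In replicate 1 alone it was 2 in the longer list and 0 with the strongest 50%. The share of all protein-coding genes was not counted with the strongest 50% or at equal lengths, where lists are cut. Whether these lower counts concern the myelin genes in particular therefore cannot be told. The median of shared peaks per window was 2 in the longer lists, 0 with the strongest 50%, 0 in gene bodies alone, 5 with 50 kb to each side, and 1 to 3 with either replicate alone. Median peaks in replicate 2 were 1 at equal lengths and 8 with 50 kb, and in replicate 1 they were 2 in the longer list, 0 with the strongest 50%, 0 in gene bodies and 5 with 50 kb. Median footprints were 5 in gene bodies and 30 with 50 kb in replicate 2, and 1 in gene bodies, 16 with 50 kb and 1 inside main-list peaks in replicate 1. The median log2 signal ratio of replicate 2 over replicate 1 was 0.60 over the 8 shared main-list peaks and 0.58 to 0.68 elsewhere. Windows of 50 kb hold more bases by construction; otherwise the cause was not tested. No paired analysis was possible because there is 1 group. Calls missing in replicate 1 may lie below what its shorter lists reach.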
